A study of Mus musculus with 56 samples.

Results

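The regions described here are 2006 distal sites at which RNA polymerase II phosphorylated at serine 5 (RNAPII-pS5) had a chromatin immunoprecipitation sequencing (ChIP-seq) peak after lipopolysaccharide (LPS) and none before it, in wild-type mouse bone marrow-derived macrophages (BMDMs). They were chosen by peak calls. All RNAPII-pS5 peaks of the 8 samples of the pretreatment experiment were merged where they overlapped, which gave 38254 regions, and a region was kept when both LPS samples (ctrl/LPS) and neither untreated sample (ctrl/ctrl) had a peak in it and every peak in it lay at least 2500 bp from a transcription start site (TSS). Of the 38254 regions, 25910 were distal by that distance, and the 2006 gained regions were 5.24% of all.

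Bone marrow cells of wild-type mice aged 8 to 12 weeks were differentiated into macrophages for 6 days with L929 supernatant, a source of macrophage colony-stimulating factor. In the pretreatment experiment the macrophages were left untreated (ctrl/ctrl), kept in IL-4 at 20 ng/ml for 24 hr (IL-4 PT/ctrl), given LPS for 1 hr (ctrl/LPS, at 100 ng/ml by the labels, where the methods give the same figure in nM), or given IL-4 for 24 hr and then LPS for 1 hr (IL-4 PT/LPS), with 2 samples per condition and antibody (RNAPII-pS5, p65 and RNAPII-pS2). In a separate experiment untreated cells and cells after 1 hr of IL-4 were profiled for PU.1, p300, H3K27Ac, HDAC1, HDAC2, HDAC3 and RNAPII-pS5, again with 2 samples per condition. All cells were of 1 genotype, and the same cross-linking with disuccinimidyl glutarate and formaldehyde was used throughout. The study calls its ChIP-seq replicates independent and biological, and the labels do not tie them to separate animals, so p-values measure the spread between the samples of a condition.

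LPS, a cell wall component of Gram-negative bacteria, acts through Toll-like receptor 4 and releases NF-κB, whose subunit p65 (RelA) then enters the nucleus and binds enhancers and promoters. At active enhancers RNA polymerase II initiates short transcripts, and its serine 5-phosphorylated form marks initiation there, whereas serine 2 phosphorylation (RNAPII-pS2) accompanies elongation. IL-4 acts through the transcription factor STAT6 and gives macrophages an alternative polarization, and PU.1 is the factor that marks macrophage enhancers before any stimulus.

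The files give the peak caller's score for each peak and no read numbers. A score of this kind is −log10 of a p- or q-value, but which of them, and at which threshold, is not settled. The lowest scores of the antibodies fitted, apart from H3K27Ac, were 1.3 to 1.44, below the 2 that a q-value of 0.01 would give. Scores are therefore used as deposited, to compare samples of 1 antibody. The RNAPII-pS5 samples had between 14476 and 22149 peaks each, with the fewest in the 2 ctrl/LPS samples (14476 and 15349) and more in IL-4 PT/LPS (17826 and 18207). The p65 samples had 9556 to 11026 peaks without LPS, 26305 and 26820 in ctrl/LPS and 36738 and 38955 in IL-4 PT/LPS, and the RNAPII-pS2 samples had 25838 to 29235. Of 7 macrophage marker genes 7 had RNAPII-pS5 peaks annotated to them in each of the 8 pretreatment samples, with 3 to 6 of them carrying a peak within 1000 bp of the TSS. For the neutrophil, T cell, B cell, dendritic cell, fibroblast and erythroid markers, at most 1 gene of each list had a peak that close in any sample.

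Most of the gained regions lay outside exons. HOMER's annotation in the files placed 1164 in intergenic DNA and 764 in introns, with 42 at transcription termination sites, 25 in 3′ UTRs, 10 in exons and 1 in a non-coding transcript. Their median width was 717 bp, the median distance to the nearest TSS was 29144 bp, and 674 lay more than 50000 bp away. They were annotated to 1549 genes, 1233 of which had a single region, and 722 regions had another gained region within 50000 bp. The genes with the most gained regions were 1700016G22Rik with 8, Gm20125 with 7, and Erdr1, Lpp and Nr3c1 with 6 each. Nr3c1 encodes the glucocorticoid receptor. The Erdr1 regions were on the Y chromosome, in a part that the X and Y chromosomes share, so reads there cannot be assigned to 1 locus with certainty.

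The RNAPII-pS5 peaks of the regions were of about average strength. Their ctrl/LPS scores had medians of 7.21 and 7.56, compared with 7.11 and 7.1 over all peaks of the same samples, and the lower of the 2 scores had a median of 6.12 and a minimum of 1.9. Just outside the rule stood 2490 distal regions with a peak in 1 ctrl/LPS sample and in no ctrl/ctrl sample, whose median score was 4.73, and 851 with peaks in both ctrl/LPS samples and in 1 ctrl/ctrl sample. The member nearest to a TSS was 2509 bp away, and 496 gained regions nearer than 2500 bp were left out. "Gained" holds for these files only. In the separate 1 hr experiment, whose untreated RNAPII-pS5 samples had 35424 and 30639 peaks, 649 of the 2006 regions (32.4%) had an RNAPII-pS5 peak in both untreated samples and 1026 (51.1%) in neither.

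Sequence at the p65 peak centres showed what many of these regions share. Each window is 200 bp of the mm10 (GRCm38) forward strand around the centre of the highest-scoring p65 peak, and capitals mark matches on either strand to the NF-κB consensus, TGANTCA (the AP-1 site), GAGGAA (the core bound by PU.1), TTGCNNCAA (C/EBP), the STAT6 site (TTC and GAA, 4 bases apart) and the interferon response element (a pair of GAAA, 2 bases apart). Overlapping matches form 1 run of capitals. Motifs were matched exactly, so a site that departs from its pattern, such as an NF-κB variant, is neither marked nor counted. The first 3 windows are shown because they are among the 4 highest p65-scoring gained regions that hold TGANTCA, a choice made after the values were seen and limited to introns and intergenic DNA. They lie at chr16:30835795-30835994 (236.2 kb downstream of the Fam43a TSS, in an intron of a non-coding transcript), chr11:120256891-120257090 (intron of Bahcc1) and chr12:103341315-103341514 (intron of Asb2).
Fam43a: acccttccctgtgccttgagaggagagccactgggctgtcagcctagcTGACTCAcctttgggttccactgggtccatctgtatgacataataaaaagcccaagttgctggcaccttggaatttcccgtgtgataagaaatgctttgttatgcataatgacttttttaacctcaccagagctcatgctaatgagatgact
Bahcc1: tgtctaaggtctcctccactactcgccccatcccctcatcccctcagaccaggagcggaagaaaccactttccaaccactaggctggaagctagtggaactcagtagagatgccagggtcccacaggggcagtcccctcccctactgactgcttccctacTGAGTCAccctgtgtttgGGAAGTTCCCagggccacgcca
Asb2: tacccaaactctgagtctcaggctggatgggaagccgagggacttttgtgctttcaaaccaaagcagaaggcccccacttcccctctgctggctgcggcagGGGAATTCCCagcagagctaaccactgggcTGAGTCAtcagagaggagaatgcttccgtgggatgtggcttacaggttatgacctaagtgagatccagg

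At the Fam43a region the p65 scores were 158 and 131 in ctrl/LPS and 116 and 136 in IL-4 PT/LPS, with 1 ctrl/ctrl sample at 6.61 and no other peak in the 4 samples without LPS. RNAPII-pS5 there was 8.71 and 8.52 in ctrl/LPS and 10.96 and 9.99 in IL-4 PT/LPS, so the 4 LPS samples carried both signals. The Asb2 region had nearly as much p65 without LPS (104 and 104 in ctrl/ctrl) as with it (121 and 127 in ctrl/LPS), although its RNAPII-pS5 peak was found with LPS and not without it. Asb2, Bahcc1 and Fam43a kept an RNAPII-pS5 peak in both IL-4 PT/LPS samples.

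Across the 1702 gained regions with a p65 peak in a ctrl/LPS sample, 45.1% of the windows held TGANTCA, compared with 24.9% of the 12025 windows in all other distal RNAPII-pS5 regions and 22% of the 3383 windows of distal regions that had RNAPII-pS5 in both ctrl/ctrl and both ctrl/LPS samples. GAGGAA went the other way, at 34.6% of gained and 43.2% of other windows. The NF-κB consensus was found in 9.69% and 7.63%, the STAT6 site in 6.4% and 7.47%, TTGCNNCAA in 2.47% and 1.96%, and the interferon response element in 9.11% and 7.37%. Median GC content was 45.0% in the gained and 46.0% in the other windows. These shares are descriptions of sequence in windows of equal length, and a match does not show binding.

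**Figure D1:**
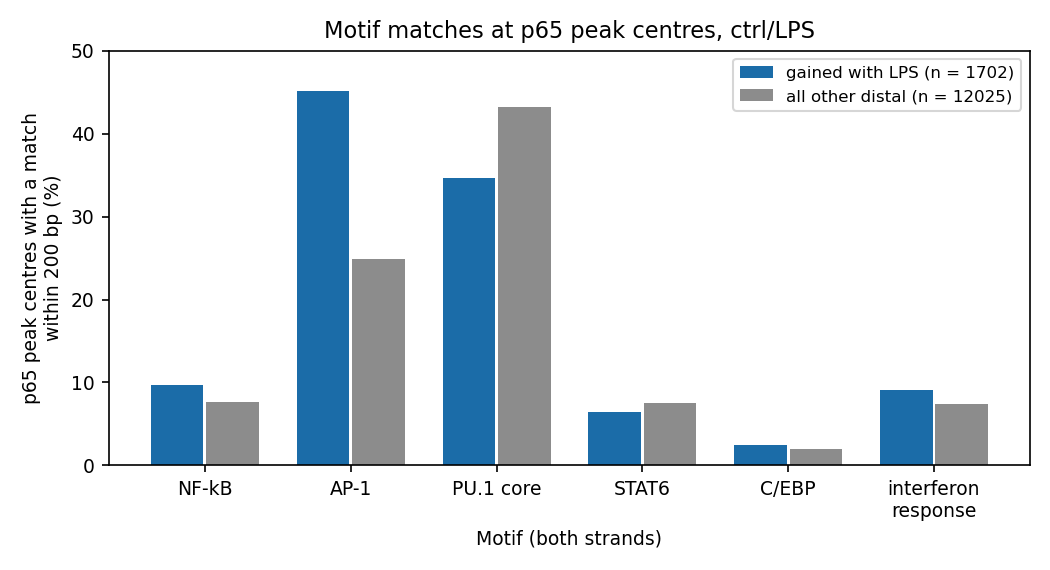
Share of 200 bp windows at p65 ctrl/LPS peak centres (y axis, percent) that hold each of 6 motifs (x axis), for the 1702 gained regions with such a peak (blue) and the 12025 windows of all other distal RNAPII-pS5 regions (grey). TGANTCA, the AP-1 site, stands at 45.1% against 24.9%, and the PU.1 core at 34.6% against 43.2%.

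Most of the gained regions had p65 with LPS, as did most distal regions with RNAPII-pS5 both before and after LPS. A p65 peak was present at 82.5% and 83.0% of the gained regions in the 2 ctrl/LPS samples, compared with 44.4% and 45.4% of the other 23904 distal regions. The rule asked for RNAPII-pS5 peaks in ctrl/LPS, which many of those others lack, so this comparison is a description. In ctrl/ctrl the order was the opposite, with 18.1% and 18.3% of the gained regions and 22.4% and 22.2% of the others. Peaks of p65 in both ctrl/LPS samples and neither ctrl/ctrl sample were found at 1177 gained regions (58.7%), and in both conditions at 283 (14.1%). The 3997 distal regions that had RNAPII-pS5 both before and after LPS were as often bound by p65 in ctrl/LPS (82.1% and 82.4%) but were bound before LPS as well (58.4% and 58.9%).

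**Figure D2:**
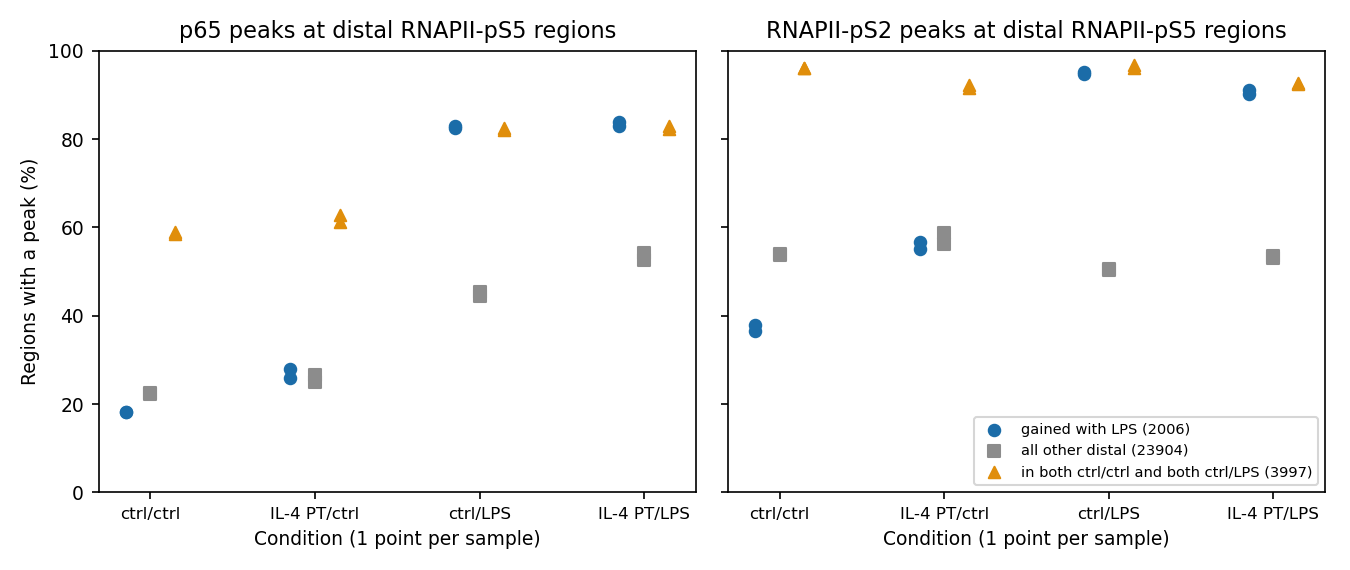
Share of distal RNAPII-pS5 regions (y axis, percent) with a p65 peak (left) or an RNAPII-pS2 peak (right) in each sample (1 point per sample, 4 conditions on the x axis), for the 2006 regions gained with LPS, all 23904 other distal regions and 3997 distal regions with peaks before and after LPS. At the gained regions the share with p65 is 18.1% and 18.3% in ctrl/ctrl and 82.5% or more in all 4 LPS samples, with or without IL-4.

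To set scores in different samples side by side, they were compared as log2 values by limma, with the antibody's lowest score in place of a missing peak and each sample centred on the regions with a peak in all samples of that antibody. Of 21022 regions with p65 peaks in at least 2 samples, 1717 were gained regions, and LPS alone raised the p65 score at 1197 of them and lowered it at 25 (25.5% higher and 12.4% lower among all 21022). Since the rule used the same contrast for RNAPII-pS5, nothing is read from those counts. In IL-4-pretreated cells, whose samples the rule did not use, LPS raised the p65 score at 1026 of the 1717 and lowered it at 29, compared with 25.8% and 7.64% of all regions tested. Without centring, the lower calls of both comparisons became 0, and the higher calls in pretreated cells 1554.

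A group of 263 gained regions had no p65 peak in any of the 4 LPS samples, and these differed in kind. Of the 263, 72 (27.4%) lay outside genes but within 5000 bp beyond the 3′ end of a protein-coding gene, compared with 64 (3.67%) of the 1743 regions with p65, and 39 (14.8%) against 28 (1.61%) were annotated to a termination site or a 3′ UTR. In untreated cells of the 1 hr experiment p300, an acetyltransferase found at enhancers, had peaks in both samples at 19 (7.22%) of the 263 and at 1497 (85.9%) of the 1743, and PU.1 at 24 (9.13%) and 1058 (60.7%). They were wider (median 987 bp against 696 bp) and nearer to a TSS (median 15572 bp against 31343 bp). The region 7.5 kb downstream of the TSS of Il6, which encodes the inflammatory cytokine interleukin-6, lay at the end of that gene, had no p65 peak in any sample, and scored 24.8 and 17.4 in ctrl/LPS and 13.7 and 14.5 in IL-4 PT/LPS. Rnf144a_-13.6Kb and Vit_-15.1Kb, also in this group and with mean ctrl/LPS scores among the 6 highest of all members, had no p65 peak in any sample either. Their RNAPII-pS5 scores in ctrl/LPS were 54.2 and 56.2 at Rnf144a and 33.4 and 39.2 at Vit, and in IL-4 PT/LPS 43.3 and 49.1 at Rnf144a and 49.98 and 57.4 at Vit. Mir155_+3.9Kb, annotated to the gene of microRNA-155 and placed in a 3′ UTR, another of those 6, was not in the group but had a single weak p65 peak, of 1.84 in 1 ctrl/LPS sample. Its RNAPII-pS5 scores were 55.5 and 64.6 in ctrl/LPS and 57.4 and 52.8 in IL-4 PT/LPS. Of the 3 other members among those 6, all with p65, Slc44a1_-30.4Kb had RNAPII-pS5 at 43.7 and 29.9 in ctrl/LPS and at 7.95 and 8.43 in IL-4 PT/LPS, where p65 was 30.8 and 28.5 against 26.8 and 31.6. At that region the LPS groups were apart in RNAPII-pS5 and overlapped in p65. These 6 members were picked for high RNAPII-pS5 in ctrl/LPS, which can favour lower RNAPII-pS5 in IL-4 PT/LPS, so their values are a description.

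RNAPII-pS5 was still found at most gained regions when the cells had been pretreated with IL-4. Of the 2006 regions 1173 (58.5%) had a peak in both IL-4 PT/LPS samples, 375 (18.7%) in 1 and 458 (22.8%) in neither, and below these are called kept, partial and lost. The share kept was 74.1% for the 3997 distal regions with RNAPII-pS5 before and after LPS, but the members were chosen on ctrl/LPS peaks, so peaks in other samples had to be fewer, and no test is given. A replicate the choice did not use gives another scale, though not an even one. The ctrl/LPS samples had fewer peaks (14476 and 15349) than the IL-4 PT/LPS samples (17826 and 18207). That can raise shares counted in IL-4 PT/LPS and lower shares counted in ctrl/LPS. With equal peak numbers per sample, 2489 regions met the rule and 50.3% of them were kept. Regions chosen on ctrl/LPS replicate 1 alone had a peak in ctrl/LPS replicate 2 in 65.4% of cases and in the IL-4 PT/LPS samples in 56.2% and 55.8%, and those chosen on replicate 2 alone in 58.4%, 53.4% and 52.8%. When the same rule was turned around, 1954 distal regions had peaks in both IL-4 PT/LPS and neither IL-4 PT/ctrl sample. Of these, 816 (41.8%) had peaks in both ctrl/LPS samples and 794 (40.6%) in neither. The 562 regions gained in both settings were 28.0% of the members and 28.8% of that reverse list.

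RNAPII-pS5 was also found at some of the regions in cells given IL-4 without LPS. Both IL-4 PT/ctrl samples had a peak at 511 members (25.5%), 1 sample at 296 (14.8%) and neither at 1199 (59.8%). The members were chosen for having no peak in ctrl/ctrl, so peaks in any other condition had to be more frequent than there, and these shares are no measure of an effect of IL-4. The untreated cells of the 1 hr experiment had a peak in both samples at 32.4%, as given above. The kept regions had it most often, 423 of 1173 (36.1%), and the lost regions least, 25 of 458 (5.46%). Measured as a score in samples that the rule did not use, LPS raised RNAPII-pS5 in IL-4-pretreated cells at 663 of the 2006 members and lowered it at 39, compared with 11.2% higher and 17.5% lower of 27609 regions tested. All 663 were kept regions, and a region without a peak in IL-4 PT/LPS cannot be called higher. With a 4 times higher value in place of missing peaks the 663 became 223 and the 39 became 13.

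After IL-4 pretreatment most gained regions with p65 in ctrl/LPS still had it, and the score was higher at some regions and lower at others. Peaks of p65 were found in both ctrl/LPS samples at 1616 members, of which 1558 (96.4%) had them in both IL-4 PT/LPS samples as well and 20 (1.24%) in neither. That was close to the distal regions with RNAPII-pS5 before and after LPS, at 96.1% and 1.03%, and the other distal regions had 91.5% and 2.57%. Compared with ctrl/LPS, the p65 score in IL-4 PT/LPS was higher at 80 and lower at 85 of the 1717 members tested (4.66% and 4.95%), whereas among all 21022 regions 12.4% were higher and 3.02% lower, and among the distal regions with RNAPII-pS5 before and after LPS 1.87% and 2.02%. The members were chosen on RNAPII-pS5 peaks in ctrl/LPS, a condition of this contrast, and all regions were not. Lower calls can be favoured by that choice, so the shares are a description. The split between higher and lower calls depends on the scale. Without centring the samples, 153 members were higher and 60 lower, and the median change over all regions was 0.43 on the log2 scale instead of 0.18. It depends on single samples too. The 85 became 29 or 32 without ctrl/LPS replicate 1 or 2 and 27 or 37 without IL-4 PT/LPS replicate 1 or 2, and the 80 became 3 or 4 without IL-4 PT/LPS replicate 1 or 2.

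The change in p65 went with the fate of RNAPII-pS5. Of the 85 regions with lower p65, 61 (71.8%) were lost regions, 17 partial and 7 kept. Of the 80 with higher p65, 62 (77.5%) were kept, 10 partial and 8 lost. Among the 1552 tested regions at which p65 did not pass the threshold, 60.7% were kept and 20.0% lost. Counted the other way, p65 was lower at 61 of 379 tested lost regions (16.1%) and at 7 of 1011 kept regions (0.692%). Lost regions had weaker peaks already without IL-4, with median ctrl/LPS scores of 5.72 and 6.04 for RNAPII-pS5 and 16.6 and 17.0 for p65, compared with 8.08 and 8.56 and with 25.6 and 25.3 at kept regions. A split at the members' median RNAPII-pS5 score, added after seeing the data, gave lower p65 at 18.5% of lost and 1.08% of kept regions at or above it and at 15.1% and 0 below it. Most tested lost regions thus had no called fall in p65. As a separate count, 316 of the 458 lost regions (69.0%) carried p65 peaks in all 4 LPS samples, which does not exclude a called fall. Both readouts share their conditions but come from different immunoprecipitations, and whether these used the same chromatin is not stated in the sources used here. With the RNAPII-pS5 lists reduced to equal peak numbers, a setting added after seeing the data, 80.0% of the p65-lower regions were lost and 68.8% of the p65-higher regions kept.

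**Figure D3:**
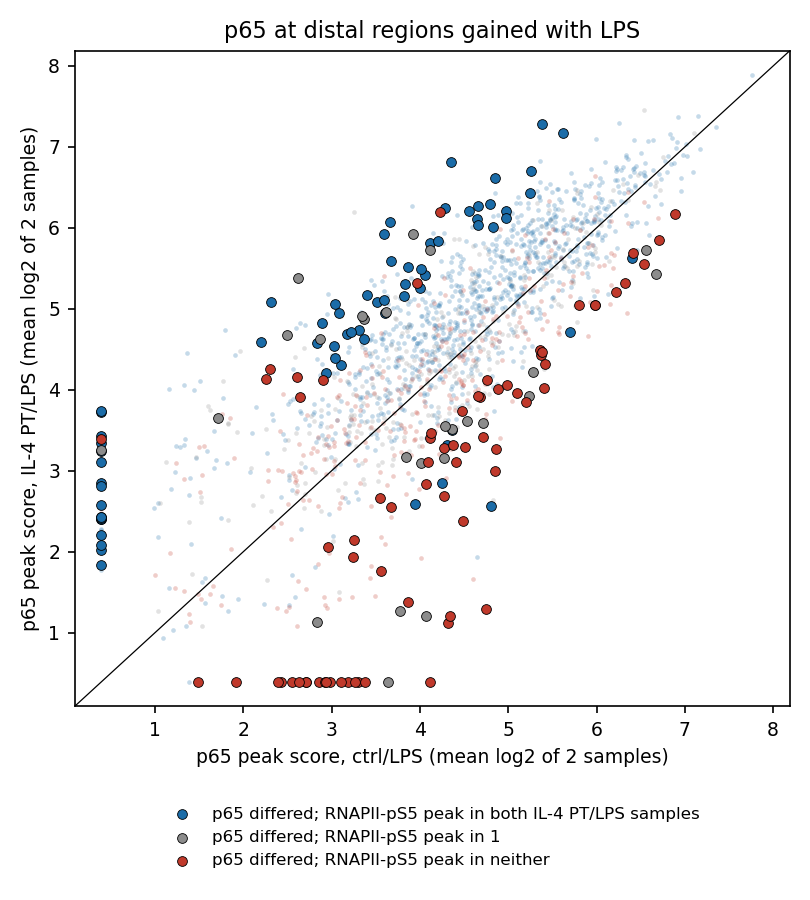
Mean log2 p65 score of the 2 ctrl/LPS samples (x axis) against that of the 2 IL-4 PT/LPS samples (y axis) for the 1717 gained regions tested, with outlined points where limma's adjusted p was at most 0.05 and the line at equal scores. Scores are not centred. The 85 regions with lower p65 are mostly red (RNAPII-pS5 lost, 61) and the 80 with higher p65 mostly blue (kept, 62), and points on the left and lower edges had no peak in that condition.

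RNAPII-pS2 followed the same division, in members again chosen on RNAPII-pS5 peaks in ctrl/LPS, which can favour lower calls. Its score was higher in IL-4 PT/LPS than in ctrl/LPS at 69 and lower at 118 of the 1943 members tested, compared with 8.39% higher and 4.7% lower among 30544 regions and 1.96% and 5.7% of the distal regions with RNAPII-pS5 before and after LPS. It was lower at 83 of 416 tested lost regions (20.0%) and at 19 of 1162 kept regions (1.64%), and higher at 4 and 61 of them. The median RNAPII-pS2 change was −1.43 on the log2 scale over the 80 p65-lower regions with a test and 0.73 over the 79 p65-higher ones. The 118 became 18 or 20 without ctrl/LPS replicate 1 or 2, and the 69 became 41, 44, 15 or 10 without ctrl/LPS replicate 1 or 2 or IL-4 PT/LPS replicate 1 or 2.

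**Figure D4:**
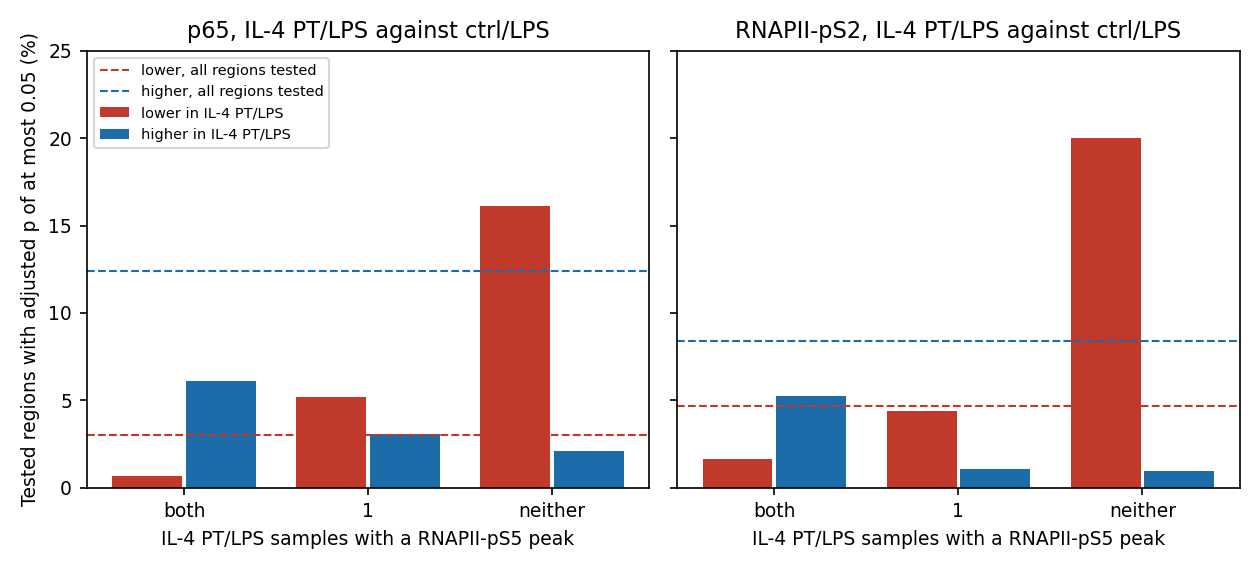
Percent of tested gained regions (y axis) whose p65 (left) or RNAPII-pS2 (right) score was lower (red) or higher (blue) in IL-4 PT/LPS than in ctrl/LPS at an adjusted p of at most 0.05, by the number of IL-4 PT/LPS samples with an RNAPII-pS5 peak (x axis). Dashed lines give the same percentages over all regions tested. Lower calls reach 16.1% (p65) and 20.0% (RNAPII-pS2) at regions with a peak in neither sample.

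The largest fall in p65 among the members was 50 kb downstream of the Map3k7cl TSS (chr16:87603004-87603608, intergenic). The p65 scores there were 16.2 and 18.5 in ctrl/LPS and no peak was found in the other 6 samples. RNAPII-pS5 scored 11.9 and 5.51 and RNAPII-pS2 29.6 and 25.1 in ctrl/LPS, and again no other sample had a peak. The rule fixed RNAPII-pS5 in ctrl/ctrl and ctrl/LPS, and the region was picked for its fall in p65. The pattern shared by the 3 antibodies is therefore a description. The p65 change was −3.97 ± 0.22 (log2, SE, limma adjusted p = 0.000966), which rests on the value put in place of a missing peak and is no measure of how far it fell. At Atg16l2_+73.7Kb, in an intron, p65 was 27.5 and 26.4 in ctrl/LPS and 4.57 in 1 of the 2 IL-4 PT/LPS samples, and RNAPII-pS5 (7.02 and 9.09) and RNAPII-pS2 (16.1 and 9.52) had no peak in IL-4 PT/LPS. Their p65 windows, at chr16:87603320-87603519 and chr7:101228312-101228511, are shown as the pair with the largest falls.
Map3k7cl: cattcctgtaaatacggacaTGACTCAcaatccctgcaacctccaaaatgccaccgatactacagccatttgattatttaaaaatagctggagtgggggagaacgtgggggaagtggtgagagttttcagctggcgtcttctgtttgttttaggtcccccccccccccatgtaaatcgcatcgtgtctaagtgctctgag
Atg16l2: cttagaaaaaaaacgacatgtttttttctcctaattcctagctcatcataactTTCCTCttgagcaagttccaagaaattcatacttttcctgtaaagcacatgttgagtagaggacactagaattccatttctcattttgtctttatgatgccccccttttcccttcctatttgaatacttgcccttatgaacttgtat

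The other 8 of the 10 largest falls were at Slc45a4, S1pr1, Chic1, Gm6936, Commd10, Cd5l, Pigl and 1700008P02Rik. S1pr1, which encodes a receptor for sphingosine-1-phosphate, had p65 at 18.2 and 22.6 in ctrl/LPS and at 4.04 in 1 IL-4 PT/LPS sample. The region near Cd5l, a secreted macrophage protein, fell from 13.3 and 21.1 to a single peak of 4.05. All but Cd5l and 1700008P02Rik, both partial, had lost RNAPII-pS5. The p65 window at 1700008P02Rik_+504.3Kb held the telomeric repeat unit TTAGGG 17 times in 200 bp, and it had p65 peaks of 9.91 and 10.95 without any treatment. Reads from such a repeat cannot be placed with certainty.

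The largest rise in p65 was at Cish_+6.9Kb (chr9:107302434-107304418). Cish encodes a member of the suppressor of cytokine signalling family. No p65 peak was found in the 6 samples of ctrl/ctrl, IL-4 PT/ctrl and ctrl/LPS, and the IL-4 PT/LPS samples scored 10.3 and 17.3. RNAPII-pS5 was already 13.9 and 8.53 with IL-4 alone, 4.62 and 3.97 with LPS alone, and 17.1 and 15.2 with both. The p65 change was 3.10 ± 0.29 (log2, SE, limma adjusted p = 0.00182) and the response of p65 to LPS was larger after IL-4 by 2.94 (limma adjusted p = 0.0132). Limk1_+12.4Kb (chr5:134675919-134676935), in an intron of the gene for an actin-regulating kinase, had p65 at 12.8 and 13.7 in IL-4 PT/LPS, 4.26 in 1 IL-4 PT/ctrl sample and none in ctrl/LPS. Their windows around the IL-4 PT/LPS peak centres, chr9:107303204-107303403 and chr5:134676344-134676543, are shown as the pair with the largest rises.
Cish: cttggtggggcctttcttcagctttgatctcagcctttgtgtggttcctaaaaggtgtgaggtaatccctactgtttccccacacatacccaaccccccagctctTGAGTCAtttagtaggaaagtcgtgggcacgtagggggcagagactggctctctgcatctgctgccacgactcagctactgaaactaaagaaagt
Limk1: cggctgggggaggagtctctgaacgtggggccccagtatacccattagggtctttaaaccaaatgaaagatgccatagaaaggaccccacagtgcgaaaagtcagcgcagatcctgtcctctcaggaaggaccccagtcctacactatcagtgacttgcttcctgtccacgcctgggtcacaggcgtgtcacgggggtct

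The other 8 of the 10 largest rises were at Art2a-ps, Tmem230, Mir139, Smox, Nfil3, Gabbr2, Casp6 and Ctsb. Casp6, a caspase gene, had p65 at 7.01 and 5.35 in ctrl/LPS and at 36.3 and 47.6 in IL-4 PT/LPS, and Gabbr2 at 4.7 and 5.23 and at 42.7 and 27. Gabbr2_+105.7Kb and Nfil3_+17.2Kb, next to a gene for a basic leucine zipper repressor, had more RNAPII-pS5 with IL-4 alone (24.4 and 17.9 at Gabbr2, 18.98 and 13.9 at Nfil3) than in either LPS condition. Of these 10 regions 7 were kept, those at Smox and Casp6 were partial and the one at Tmem230 was lost.

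At p65 peak centres of IL-4 PT/LPS, 9 of the 80 p65-higher regions (11.2%) held the STAT6 site. The share was 6.95% of 1711 members and 8.55% of 13965 other distal windows. The NF-κB consensus and the interferon response element were each also found at 9 of the 80, against 9.35% and 8.83% of members. GAGGAA was found at 20.0% of the 80 and 34.1% of members, and TGANTCA at 36.2% and 43.5%. The share with the STAT6 site was 8.65% at kept and 3.56% at lost regions. TGANTCA was found at 43.3% of kept and 41.6% of lost regions, and at 45.1% of the members in ctrl/LPS.

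Members near genes of the inflammatory response were examined by lists of genes. For scale, p65 was higher in IL-4 PT/LPS at 12.4% and lower at 3.02% of all regions tested, and RNAPII-pS2 at 8.39% and 4.7%. Each list had at most 22 regions tested for p65, so the counts are not read as departures from those shares. Cytokine genes had 20 gained regions at 14 genes, 14 of them kept and 2 lost, and 1 of 16 tested had higher p65 and 0 lower. Il12b_-9.8Kb (chr11:44389850-44390714) lies upstream of the gene for the shared subunit of interleukin-12 and interleukin-23. Its RNAPII-pS5 scores were 32.1 and 36.1 in ctrl/LPS and 16.0 and 16.4 in IL-4 PT/LPS, with no peak in the 4 samples without LPS, and its p65 scores were 108 and 104 against 69.6 and 89.2 (−0.68 ± 0.23, limma adjusted p = 0.119). The groups did not overlap in either readout, but the p65 difference did not pass the threshold. Like other regions picked by list, Il12b_-9.8Kb was named for its high RNAPII-pS5 in ctrl/LPS. That choice can favour lower RNAPII-pS5 in IL-4 PT/LPS, so the RNAPII-pS5 difference is a description. Il1rn_+6.3Kb, at the end of the gene for the interleukin-1 receptor antagonist, had RNAPII-pS2 at 38.1 and 30.8 in ctrl/LPS and 16.9 and 15.8 in IL-4 PT/LPS (limma adjusted p = 0.0387). Edn1, which encodes the vasoconstrictor peptide endothelin-1, had the largest RNAPII-pS2 rise of all members at +7.3Kb, with no peak in ctrl/LPS and 37.9 and 29.2 in IL-4 PT/LPS, where RNAPII-pS5 was 27.8 and 26.0 against 2.44 and 3.81.

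Chemokine genes had 10 gained regions, 4 kept, 3 partial and 3 lost. All 3 lost regions, and 1 of the kept ones, were annotated to Cxcl11. None of the 8 tested passed for p65, and RNAPII-pS2 was lower at 4 of 10, although its median change over the 10 was 0.23 (log2). At Cxcl11_-10.8Kb RNAPII-pS5 scored 9.21 and 12.1 in ctrl/LPS and had no peak in IL-4 PT/LPS, while Cxcl11_-5.3Kb, also in an intron, kept it (21.0 and 21.1 against 16.1 and 9.18). Ccl3_-6.6Kb, near the gene for a chemokine that draws monocytes, had p65 scores of 56.7 and 64.5 in ctrl/LPS against 54.1 and 58.8 in IL-4 PT/LPS (limma adjusted p = 0.39), and RNAPII-pS2 fell from 28.2 and 24.3 to 12.1 and 12.8 (limma adjusted p = 0.0345). At Ccl5_-5.1Kb the 2 ctrl/LPS samples differed from each other in p65 (117 and 36.1) and the IL-4 PT/LPS values of 81.8 and 91.4 lay between them.

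The genes for NF-κB subunits and their inhibitors had 18 gained regions, 11 kept and 2 lost, and none of 12 tested passed for p65. Tnfaip3 encodes A20, a ubiquitin-editing enzyme that limits NF-κB signalling, and Tnfaip3_-62.3Kb (chr10:19076935-19078613) had p65 at 98.8 and 88.4 in ctrl/LPS and 99.1 and 100.3 in IL-4 PT/LPS, and RNAPII-pS5 at 22.2 and 32.3 against 24.3 and 19.5. The ranges overlapped in RNAPII-pS5 only. Nfkbiz_+266.8Kb, annotated to the gene for the nuclear inhibitor IκBζ, had p65 at 33.5 and 37.6 against 18.9 and 25.8 (limma adjusted p = 0.0574).

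Feedback regulators had 28 gained regions at 17 genes, 17 kept and 6 lost, with p65 higher at 3 and lower at 1 of 22. Irak3_+10.1Kb (chr10:120191219-120191631, intron) was the only member to overlap a primer pair of the study's enhancer assays, and Irak3 encodes the inactive kinase IRAK-M, which restrains Toll-like receptor signalling. Its p65 scores were 37.9 and 36.4 in ctrl/ctrl, without a peak in IL-4 PT/ctrl, 84.7 and 102 in ctrl/LPS and 52.1 and 42.5 in IL-4 PT/LPS (−1.23 ± 0.25, limma adjusted p = 0.025). The p65 scores with IL-4 were lower both before and after LPS. RNAPII-pS5 was weak, 4.7 and 3.29 in ctrl/LPS, and was not found elsewhere. Gadd45b_+9.9Kb, near a stress-response gene, went the other way, with p65 at 13.2 and 15.5 in ctrl/LPS and 32.5 and 48.4 in IL-4 PT/LPS (1.23 ± 0.27, limma adjusted p = 0.0314). The Irak3 window at the ctrl/LPS p65 centre, chr10:120191295-120191494, is printed because the assay's primers lie in this region, and it held none of the 6 motifs.
Irak3: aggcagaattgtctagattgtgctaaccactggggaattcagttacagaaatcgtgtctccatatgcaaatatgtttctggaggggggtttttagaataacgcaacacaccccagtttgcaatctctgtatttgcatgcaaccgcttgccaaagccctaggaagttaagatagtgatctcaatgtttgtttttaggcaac

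The immediate-early factors had 9 gained regions, 6 kept and 1 lost. Ier5_-9.0Kb, near an early stress-response gene, rose in p65 from 13.8 and 10.6 to 62.9 and 58.2 (2.08 ± 0.25, limma adjusted p = 0.00368) and in RNAPII-pS2 from 37.4 and 36.9 to 109.5 and 106.3 (limma adjusted p = 0.00953), with RNAPII-pS5 at 9.86 and 6.12 against 10.5 and 10.97. Pattern receptor, adaptor and inflammasome genes had 9 regions, 7 of them kept and 1 lost, with 1 of 7 lower in p65. Nod2_+3.4Kb, in an intron of the gene for a sensor of bacterial peptidoglycan, kept RNAPII-pS5 at 12.4 and 14.1 against 8.97 and 11.9.

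Interferon response and co-stimulation genes had 14 regions, 8 kept and 4 lost, with p65 higher at 2 and lower at 1 of 8. Irf8_-10.9Kb (chr8:120725172-120725757), upstream of the gene for an interferon regulatory factor needed in the myeloid lineage, lost RNAPII-pS5 (11.1 and 12.5 to no peak), and p65 fell from 43.8 and 41.9 to 17.95 and 22.2 (−1.35 ± 0.22, limma adjusted p = 0.0122). RNAPII-pS2 fell there from 57.0 and 42.5 to 19.2 and 18.2 (limma adjusted p = 0.0166). Ptgs2_+51.4Kb, downstream of the gene for cyclooxygenase-2, rose in p65 from 26.2 and 23.9 to 65.5 and 73.3 (limma adjusted p = 0.0157), and it had RNAPII-pS2 at 48.4 and 47.8 with IL-4 alone and no such peak in ctrl/ctrl.

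Macrophage lineage and lipid genes had 9 regions, 7 kept and 1 lost, and none of the 9 passed for p65. Cebpa_+8.3Kb was the lost one, with p65 scores of 32.5 and 43.9 in ctrl/LPS that overlapped those of IL-4 PT/LPS (50.6 and 34.6). Among alternative activation genes only Il4ra, for the IL-4 receptor α chain, and Pdcd1lg2, for the inhibitory ligand PD-L2, had a gained region, and both regions were lost. At Pdcd1lg2_-7.5Kb (chr19:29403159-29403603) p65 was 8.3 and 7.1 and RNAPII-pS5 5.63 and 6.31 in ctrl/LPS, with no peak of either in the other 6 samples (p65 limma adjusted p = 0.00128). At Il4ra_-12.7Kb (chr7:125539346-125539753) p65 was 15.8 and 16.4 in ctrl/LPS, and absent from 1 IL-4 PT/LPS sample and at 10.9 in the other (limma adjusted p = 0.161), and RNAPII-pS2 had peaks of 19.6 and 11.7 in ctrl/LPS only (limma adjusted p = 0.00148). The p65 windows of this pair, chr19:29403093-29403292 and chr7:125539381-125539580, are shown as the gained regions of genes tied to IL-4.
Pdcd1lg2: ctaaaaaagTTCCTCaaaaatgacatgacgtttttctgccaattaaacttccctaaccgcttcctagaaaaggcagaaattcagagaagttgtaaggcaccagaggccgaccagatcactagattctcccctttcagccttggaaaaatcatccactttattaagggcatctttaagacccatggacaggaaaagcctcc
Il4ra: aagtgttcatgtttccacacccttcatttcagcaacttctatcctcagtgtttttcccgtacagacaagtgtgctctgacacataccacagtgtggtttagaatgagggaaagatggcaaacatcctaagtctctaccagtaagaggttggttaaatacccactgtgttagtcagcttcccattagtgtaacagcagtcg

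**Figure D5:**
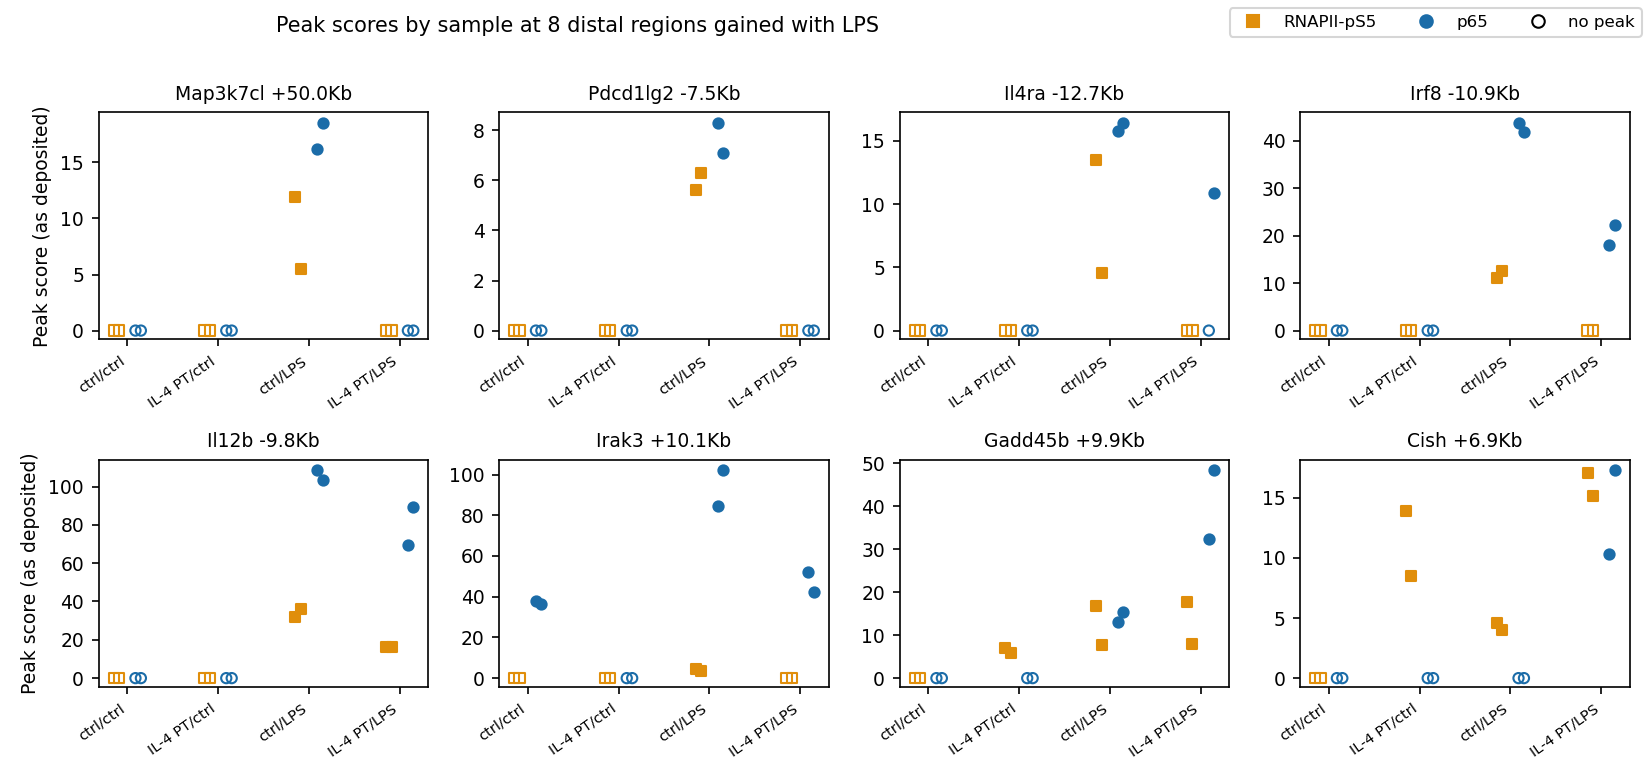
RNAPII-pS5 (squares) and p65 (circles) peak scores (y axis, as deposited, separate scale per panel) in the 2 samples of each of 4 conditions (x axis) at 8 gained regions, with open symbols at 0 for samples without a peak. Map3k7cl, Pdcd1lg2, Il4ra, Irf8 and Irak3 lack RNAPII-pS5 in IL-4 PT/LPS, Il12b keeps it at 16.0 and 16.4, and Cish has it with IL-4 alone and gains p65 only with IL-4 and LPS together.

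The LPS response itself differed between pretreated and other cells at some members, by the interaction term of the same fits. That term holds the contrast of ctrl/LPS and ctrl/ctrl, on which the rule chose the members by RNAPII-pS5. Smaller responses after IL-4 can therefore be favoured by the choice, and the counts are a description. For p65 the response was larger after IL-4 at 35 and smaller at 105 of 1717 members, compared with 6.32% and 3.58% of all regions. For RNAPII-pS2 it was larger at 42 and smaller at 418 of 1943, compared with 7.89% and 6.91%. A smaller response can come from a higher score with IL-4 alone as well as from a lower score with LPS. At 1700016G22Rik_+67.9Kb p65 was already 12.4 and 8.98 with IL-4 alone, with no peak in ctrl/ctrl, and 40.5 and 40.2 in ctrl/LPS against 66.5 and 71.3 in IL-4 PT/LPS (interaction −2.65, limma adjusted p = 0.0108). The p65 counts became 0 and 0 without ctrl/ctrl replicate 1 or either IL-4 PT/LPS sample, and 15 and 35 without ctrl/ctrl replicate 2. Without ctrl/LPS replicate 1 or 2 the 105 became 57 or 59, and without centring the 35 became 76 and the 105 became 80. Leaving out 1 sample moved the RNAPII-pS2 counts less, with 8 to 26 larger and 235 to 269 smaller in the fits that moved them by over 1.5 times. They depended on the value for missing peaks, and a 4 times higher one gave 11 larger and 165 smaller. Among regions with a peak in every sample, 0 members were larger and 42 smaller.

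Neighbouring gained regions of 1 gene did not always share a fate. The 8 regions of 1700016G22Rik, spread from 20.7 to 555.7 kb downstream of its TSS, and 6 were kept and none lost. At 1700016G22Rik_+29.2Kb p65 fell from 83.2 and 85.5 to 49.3 and 49.4 (−1.02 ± 0.21, limma adjusted p = 0.0273), while at +20.7Kb it was 42.1 and 43.9 against 62.3 and 66.5 (limma adjusted p = 0.798). The first region had no p65 without LPS, and the second had a peak of 5.53 in 1 IL-4 PT/ctrl sample. Lpp encodes a LIM-domain protein of cell contacts. Within it, Lpp_+100.9Kb fell in p65 from 23.5 and 33.1 to 6.21 and 5.66 (−2.48 ± 0.26, limma adjusted p = 0.00256) and kept weak RNAPII-pS5, and Lpp_+4.2Kb rose from 7.97 and 4.63 to 15.7 and 20.3 (1.31 ± 0.33, limma adjusted p = 0.0494) and lost RNAPII-pS5, so both ran against the division seen over all members.

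The elongating form of the polymerase was found at more of the gained regions with IL-4 alone than in ctrl/ctrl. RNAPII-pS2 peaks were found at 36.6% and 37.8% of the members in ctrl/ctrl and at 55.0% and 56.8% in IL-4 PT/ctrl, whereas the other distal regions had 54.0% and 53.7% and then 56.2% and 58.7%. IL-4 alone raised the RNAPII-pS2 score at 594 and lowered it at 83 of 1943 members tested, compared with 12.8% and 10.1% of all regions. The rule required RNAPII-pS5 to be absent in ctrl/ctrl, so the members start low in that condition. LPS alone raised RNAPII-pS2 at 1500 members and lowered it at 4 (16.6% and 17.0% of all regions), which is again the rule's own contrast, and in IL-4-pretreated cells it did so at 903 and 10 (15.1% and 13.3%). For p65, IL-4 alone raised the score at 126 members and lowered it at 42 (4.54% and 1.97% of all regions). The 126 became 54 without either ctrl/ctrl sample and 194 without IL-4 PT/ctrl replicate 2, and the 42 became 25 without ctrl/ctrl replicate 2. A 4 times higher value for missing peaks left 24 and 15.

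Many gained regions were occupied before any stimulus. In the untreated cells of the 1 hr experiment, both samples had a p300 peak at 1516 members (75.6%), compared with 65.5% of the other distal regions, and a PU.1 peak at 1082 (53.9%), compared with 54.2%. Distal regions with RNAPII-pS5 before and after LPS had both more often, p300 at 85.7% and PU.1 at 81.1%. H3K27Ac, the acetylation that marks active enhancers, was present in both samples at 876 (43.7%), compared with 46.1% of the other distal regions and 67.9% of those with RNAPII-pS5 before and after LPS. The histone deacetylases were less frequent than at the other distal regions: HDAC1 was found in both samples at 561 (28.0% against 40.0%), HDAC2 at 614 (30.6% against 38.9%) and HDAC3 at 293 (14.6% against 21.6%). Distal regions with RNAPII-pS5 before and after LPS had them at 74.9%, 73.5% and 58.4%. Kept regions had H3K27Ac in untreated cells more often than lost regions (49.1% against 32.8%) and also RNAPII-pS5 in that experiment (38.2% against 18.6%). PU.1 differed less, at 55.0% and 50.7%.

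After 1 hr of IL-4, H3K27Ac signal was higher at 200 and lower at 336 of 971 members tested, compared with 19.7% higher and 23.8% lower among 21296 regions. Distal regions in general had more lower calls than that, with 33.4% of the other distal regions and 38.2% of the distal regions with RNAPII-pS5 before and after LPS, so the 34.6% of members was near the share of distal regions. Among the 168 tested lost regions 40.5% were lower and 15.5% higher, and among the 637 kept regions 34.1% and 21.8%. The 336 became 145 or 139 without untreated replicate 1 or 2, and the 200 became 124 or 116 without IL-4 replicate 1 or 2. For p300 the counts were 73 higher and 33 lower of 1661 members tested (3.71% and 0.722% of all regions). Untreated p300 replicate 1 stood apart, with 44787 peaks against 66710 to 69360 in the other 3 samples, and without it 4 members were lower. Without either IL-4 sample no p300 call remained among the members (0 higher and 0 lower), and without untreated replicate 2 there were 189 higher and 103 lower. PU.1 passed limma's adjusted threshold at 0 members in either direction, and at an unadjusted p of at most 0.05 it was higher at 98 and lower at 81 of 1317, against 6.21% and 4.47% of all regions.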

How the data were processed

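ChIP-seq peak lists of mouse BMDMs were used. Per the labels and the study's methods, the authors aligned reads with BWA (0.7.10) to mm10, with SAMtools (0.1.19) among the named tools, called peaks with MACS2 (2.0.10) in each sample and annotated them with HOMER (4.2), and called H3K27Ac regions with HOMER. The score deposited with each peak is taken as −log10 of a p- or q-value from the peak caller, without knowing which, and the deposited H3K27Ac value as a signal. The files hold no read numbers, so depth is unknown, and the peak number per sample is the nearest record.

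Peaks of the 8 RNAPII-pS5 samples that overlapped by at least 1 bp were merged. Each region took the highest score of an antibody in a sample. Missing peaks took the antibody's lowest score, so fitted changes at regions without a peak depend on that value. Samples were centred on the median log2 score of regions with a peak in all samples, and limma (3.58.1, R 4.3.3) was fitted to all regions with peaks in at least 2 samples, with Benjamini-Hochberg adjustment over all of them and a threshold of 0.05. Of the 2006 members, 289 were not tested for p65 for want of peaks. The fit was tested on simulated data. The alternatives were no centring, a higher value for missing peaks, other filters on peaks and regions, no adjustment, the replicate number as a block, and leaving out each sample. Named regions were the 6 with the highest RNAPII-pS5 score in ctrl/LPS, the 10 largest p65 falls and rises and the 5 largest RNAPII-pS2 falls and rises past the threshold, up to 4 per gene list by RNAPII-pS5 score, the members at primer pairs and the 5 genes with most members. The members and lists were chosen with earlier results of these data known. Genome sequence was read from GRCm38.p6, the build of the files, and 1 of the 4 windows with TGANTCA and the highest p65 scores is not reported here. RNAPII-pS2 samples of the 1 hr experiment were not used here, because peak names inside those files carry the other treatment than their labels. Python (3.11.15), NumPy (2.4.6), pandas (2.3.3) and SciPy (1.17.1) were used.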

Additional observations from a re-analysis of the deposited data

Results flagged for a closer look

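The size of the LPS response differed between IL-4-pretreated and other cells by the interaction term of the limma fits, at an adjusted p of at most 0.05, at 4 groups of gained regions. The p65 response was larger after IL-4 at 35 regions (2.04% of members tested) and smaller at 105 (6.12%), against 6.32% and 3.58% of all regions. Irak3_+10.1Kb was among the 35, at 3.43 on the log2 scale (limma adjusted p = 0.00898), with p65 at 37.9 and 36.4 in ctrl/ctrl and no peak in IL-4 PT/ctrl. The 3.43 rests on the value put in place of that missing peak. With LPS, p65 there was lower after IL-4, at 52.1 and 42.5 against 84.7 and 102. The RNAPII-pS2 response was larger after IL-4 at 42 regions (2.16% of members tested) and smaller at 418 (21.5%), against 7.89% and 6.91% of all regions. With a 4 times higher value for missing peaks these counts became 11 and 165. Without that change, the fits raised RNAPII-pS2 with IL-4 alone at 594 members. The members were chosen for RNAPII-pS5 peaks absent in ctrl/ctrl and present in ctrl/LPS. The first condition enters the interaction and the effect of IL-4 alone, and the second enters the interaction. Smaller responses after IL-4 can therefore be favoured by the choice.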

How the results depend on the processing

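The choice of peaks set the number of members and the share with RNAPII-pS5 in both IL-4 PT/LPS samples. With the upper 50% of peaks by score 1265 regions remained and the share was 49.3%, and with equal peak numbers per sample the share was 50.3%. Leaving out 1 sample gave 2022 to 3500 members and shares of 42.6% to 67.9%, in part because presence was then asked of 1 sample. A 4 times higher value for missing peaks gave 223 higher and 13 lower for RNAPII-pS5 in pretreated cells, 197 lower for p65 with LPS and 249 lower for p65 with LPS after IL-4, 156 higher and 136 lower for p65 under IL-4 and LPS, 13 and 43 for the p65 interaction, 113 higher for RNAPII-pS2 under IL-4 and LPS, 12 lower for RNAPII-pS2 with LPS, and 51 lower for p300. Testing regions with a peak in every sample left no member for RNAPII-pS5, and gave 70 and 11 for p65 with LPS, 1 and 0 for IL-4 under LPS, 76 and 10 for LPS after IL-4 and 0 and 0 for the interaction, 320 higher for RNAPII-pS2 with LPS and 7 and 10 under IL-4 and LPS, and 140 and 214 for p300, by construction with fewer regions tested for p65 and RNAPII-pS2. Without centring, p65 was lower with LPS at 0 members in either setting and higher after IL-4 at 1554, higher at 153 for IL-4 under LPS and at 76 for the interaction, RNAPII-pS2 was lower with LPS at 1, and p300 was higher at 48 and lower at 3. The upper 50% of peaks by score gave 181 higher for RNAPII-pS5 in pretreated cells, 83 and 117 lower for p65 with LPS without and with IL-4, 306 higher and 168 lower for IL-4 under LPS, and 56 higher for the interaction. Without adjustment of p the counts were 206 and 195 for p65 and 198 and 248 for RNAPII-pS2 under IL-4 and LPS, 106 and 259 for the p65 interaction, 253 and 421 for p300 and 98 and 81 for PU.1. The cause of these shifts was not tested.

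Same-numbered samples did not deviate together (correlations of −0.02 to 0.0956), so the replicate numbers were not taken as pairs. With the replicate block the counts were 44 higher and 48 lower for p65 under IL-4 and LPS, 12 and 50 for the p65 interaction, 41 higher for RNAPII-pS2 under IL-4 and LPS, 2 lower for RNAPII-pS2 with LPS, and 16 and 6 for p300, and the other counts named for the main comparisons stayed within 1.5 times.

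Leaving out 1 sample gave at least 956 higher and 7 to 28 lower calls for p65 with LPS and, for higher and lower calls, 3 to 87 and 27 to 37 for p65 under IL-4 and LPS, 0 to 37 and 0 to 106 for the p65 interaction, 1165 to 1286 and 0 to 3 for RNAPII-pS2 with LPS, 10 to 44 and 18 to 100 for RNAPII-pS2 under IL-4 and LPS, 0 to 189 and 0 to 103 for p300, and 116 to 146 and 139 to 252 for H3K27Ac. The lower p65 calls with LPS became 7 or 9 without ctrl/ctrl replicate 1 or 2. Over the alternatives for which these shares were computed, 53.6% to 81.5% of p65-lower members had lost RNAPII-pS5 and 68.8% to 100.0% of p65-higher members had kept it, and the 100.0% rests on 3 and 4 regions. Testing regions with a peak in every sample left no lower member, and fits without a ctrl/ctrl or IL-4 PT/ctrl sample were not run for these shares. With 2 samples a group and no read numbers, regions near the peak caller's threshold can drop out of a list without a measured change.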
